A study of Mus musculus with 38 samples.

Results

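Mouse bone marrow-derived macrophages 24 h after lipopolysaccharide and interferon-γ were compared here with the same cells at 0 h. The 24 h group, called late M1, comprised 4 RNA-seq libraries of C57BL/6 bone marrow-derived macrophages exposed for 24 h to LPS at 5 ng/ml and IFNg at 12 ng/ml. The 0 h group, called M0, comprised 4 RNA-seq libraries of C57BL/6 bone marrow-derived macrophages at time 0 h, taken here as unstimulated from the time label and the protocol, although their treatment label names both agents. These 8 libraries were chosen by their labels and time point, from 38 samples in the series, of which 32 were RNA-seq libraries in 8 groups of 4. The other RNA groups were 4, 8 and 16 h of the same stimulus and the stimulus with added lactic acid, and 6 ChIP-seq samples covered the unstimulated and the 24 h state. The cells were primary macrophages grown out of marrow, and the labels do not say whether the 4 libraries of a group came from separate mice or cultures. All p-values rest on the spread between libraries of the same group, pooled over all 32 RNA libraries in 8 groups. They do not measure the spread of the 24 h and 0 h libraries alone, and the pooled spread may be technical.

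Lipopolysaccharide is a bacterial cell wall component read by Toll-like receptor 4 with CD14 and MD-2. Its signals release NF-κB, switch on AP-1 and C/EBP factors and induce type I interferon, while interferon-γ works through JAK kinases. The first hours bring cytokines, chemokines and interferon-stimulated genes. The later hours bring the metabolic shift to glycolysis, nitric oxide and itaconate production, feedback inhibitors and, in part, genes of repair. The study that produced the libraries asked how lactate made by glycolysis marks histones in M1 cells and which genes follow late in the course.

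The deposited table gave 11184 genes in RPKM, that is, reads scaled to the length of the gene in kilobases and to a library size used by the authors. Of these, 9942 reached 1 RPKM in at least 4 libraries and were tested, and 1242 did not. Each fold change below is a difference of log2(RPKM + 1), 24 h minus 0 h, which understates the change of genes near or below 1 RPKM. A gene is called higher or lower where its limma p, adjusted by Benjamini-Hochberg over all 9942 genes, was under 0.05. Values in parentheses after a gene are its log2 fold change, with its standard error (SE) after ± where given. The highest limma adjusted p among the called genes chosen by the naming rule and named here was 0.00902.

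At 24 h, 3966 genes were higher (39.9% of those tested) and 3713 were lower (37.3%), so that 77.2% of all genes passed the test in either direction. Every count of called members below stands against these shares. On simulated data the share of false calls by this test came out above 0.05, so the threshold may not hold the calls to that share. Changes of at least 2-fold were called in 623 higher genes (6.27%) and 534 lower genes (5.37%). At 4-fold the counts were 129 higher and 118 lower, at 8-fold 60 and 37, and at 16-fold 29 and 8. At 64-fold 5 genes were higher, Saa3, Ccl5, Lcn2, Arg1 and Hp, and 0 were lower. All these folds are of RPKM + 1, so genes under 1 RPKM in either group changed by more in RPKM itself. Ccnb2, for instance, had a mean of 57.1 RPKM at 0 h and 0.168 RPKM at 24 h. The ranges of the libraries did not overlap in 34.2% of genes with 24 h above and in 31.6% with 24 h below.

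The scale of the deposited values bears on direction. Whole reads could be recovered from the RPKM, and the library size used by the authors was on average 0.956 of the reads in listed genes at 24 h and 1.33 of them at 0 h. A size below the reads in listed genes, as on average at 24 h, is not a plain count of reads. Reads in listed genes ranged from 62.7 to 78.2 M at 24 h and from 61.3 to 69.6 M at 0 h. The 10 genes with the most reads took 24.8% of reads at 24 h and 13.4% at 0 h. Fth1 alone took 7.38% of reads at 24 h against 1.64% at 0 h, and Saa3 took 3.64% against 0.000944%. When the values were scaled to the reads in listed genes instead, the median log2 fold change of all tested genes shifted to -0.37, against 0.02 on the deposited scale. The share of higher genes among those called shifted to 20.4%, against 51.6%. The median on this second scale is given below as "read-scaled" beside the median of each gene list, with the counts called on it where the share of higher calls moved by over 10 percentage points.

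The 24 h libraries also spread more than the 0 h libraries, with a median SD of log2(RPKM + 1) of 0.142 at 24 h and 0.0648 at 0 h. The 24 h library with replicate number 4 lay farthest from the median of its group in 5503 genes, or 55.4%. On a principal component analysis of the 8 libraries, the first component (91.3% of the variance) separated 24 h from 0 h. The second (5.11%) set 24 h replicate 4 at 21.2, with the other 24 h libraries between -11.2 and -5.12. That library deviated with gene length: its median deviation from its group was 0.22 in the 2487 shortest genes and -0.13 in the 2485 longest. The fold changes moved with length too, with a median of 0.30 in the same short genes and -0.15 in the long ones. With the length trend removed, these medians were 0.06 and 0.03. Genes at least 2-fold higher had a median length of 2380 bases and those at least 2-fold lower 4043.5 bases, against 3872 bases over all tested genes. With the trend removed, 537 genes were at least 2-fold higher and 533 at least 2-fold lower. The part of RNA quality in this was not tested.

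**Figure D1:**
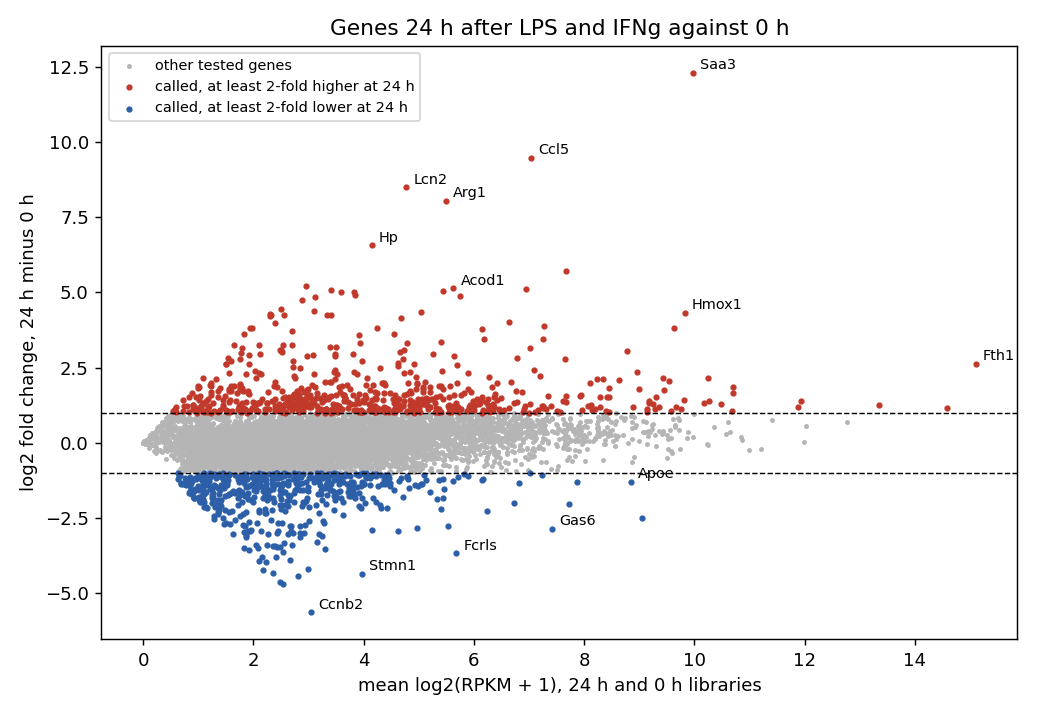
Log2 fold change, 24 h minus 0 h, of log2(RPKM + 1) for each of 9942 tested genes (vertical axis) against its mean log2(RPKM + 1) over the 8 libraries (horizontal axis). Red points are the 623 called genes at least 2-fold higher, blue points the 534 at least 2-fold lower and grey points the rest; dashed lines mark 2-fold.

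The label macrophage was checked against defining markers. All 10 macrophage identity markers were listed, and their summed level was 36280 to 48530 RPKM at 24 h and 18010 to 20500 RPKM at 0 h, most of it Lyz2. Of these markers, 7 were higher, among them Fcgr1 and Itgam. Mertk and Csf1r were lower, and Cd68 had an adjusted p over the threshold. Markers of other cells were low. Of 13 neutrophil and precursor markers 6 were listed, Mpo, Elane and Ly6g not among them, with sums of 23.1 to 36.1 RPKM at 24 h and 12.1 to 17.4 RPKM at 0 h. S100a8 rose in this list (1.87) and Ngp fell (-1.22). Of 9 dendritic cell markers 1 was listed, Xcr1, at 0.038 to 0.0631 RPKM at 24 h and 0.0273 to 0.0784 RPKM at 0 h. Of 13 lymphocyte markers 3 were listed, with sums of 3.94 to 6.22 RPKM at 24 h and 5.31 to 6.97 RPKM at 0 h. Of 11 erythroid and mast cell markers 0 were listed. Of 11 stromal and endothelial markers 7 were listed, with sums of 1.83 to 2.32 RPKM at 24 h and 0.824 to 1.01 RPKM at 0 h, Dcn being the called member (1.18). In bulk RNA, fewer cells of a type and less RNA per cell cannot be told apart, and the part of other cells in the results below was not tested.

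The strongest rises belonged to secreted proteins of the acute-phase and antimicrobial kind, which bind lipids, iron carriers or heme and rise in blood during infection. Saa3, a serum amyloid A made by macrophages, measured 70732, 68173, 54655 and 97142 RPKM at 24 h, against 16.9, 13, 10.2 and 13.3 RPKM at 0 h. Per kilobase of gene these 24 h levels were of the order of those of Fth1, given below. Lcn2, the siderophore-binding lipocalin that withholds iron from bacteria, measured 513, 397, 475 and 739 RPKM at 24 h, against 0.298, 0.524, 0.476 and 0.468 RPKM at 0 h. Hp, or haptoglobin, which binds free hemoglobin, measured 174, 160.5, 145 and 214 RPKM at 24 h, against 0.946, 0.824, 0.577 and 0.942 RPKM at 0 h, and Slpi, an inhibitor of leukocyte proteases, 71.2, 71.2, 65.6 and 114 RPKM at 24 h, against 2.52, 1.23, 0.893 and 2.21 RPKM at 0 h. No 24 h library of these genes came near a 0 h library, and 24 h replicate 4 was the highest of its group in each. The log2 fold changes were 12.3 ± 0.16 for Saa3, 8.49 ± 0.11 for Lcn2, 6.57 ± 0.1 for Hp and 4.92 ± 0.18 for Slpi (SE, limma adjusted p at most 1.4e-21). Of the 12 tested members of the list 9 were higher and 0 lower (median 3.25, read-scaled 2.96). Complement C3 (3.34) and ceruloplasmin, Cp (3.16), a copper-carrying ferroxidase, were also in it, and Camp and Ptx3 were among the 3 that did not pass.

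**Figure D2:**
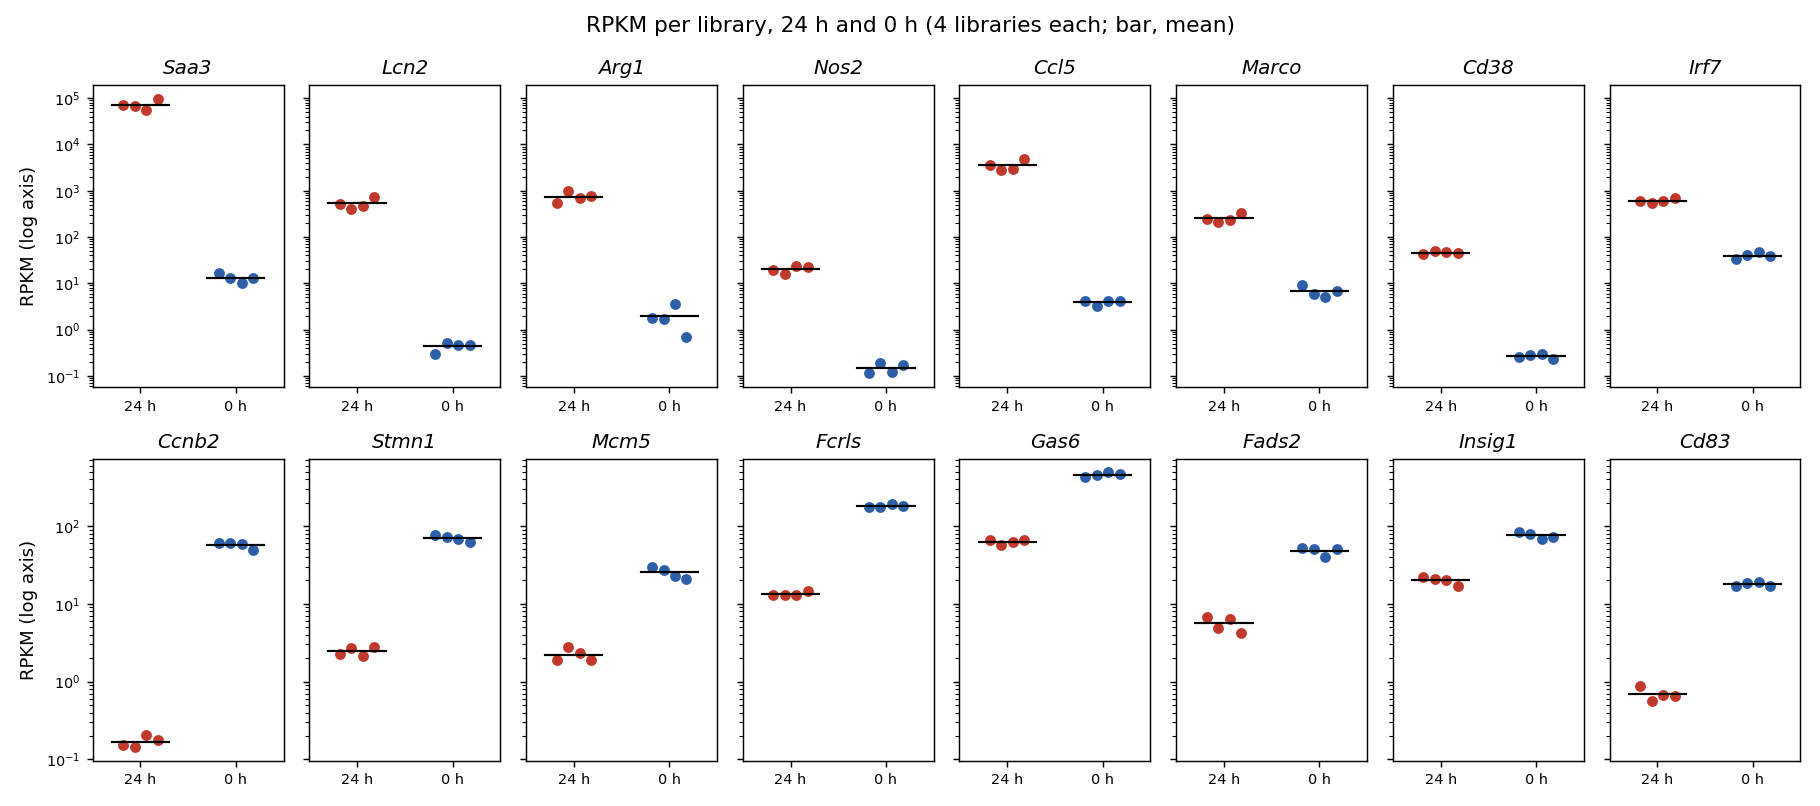
RPKM of 16 genes in each of the 8 libraries on a log scale, 24 h (red, left of each pair) and 0 h (blue, right). Each point is a library and each bar the mean of 4. The upper row shows genes higher at 24 h, from Saa3 to Irf7, and the lower row genes lower at 24 h, from Ccnb2 to Cd83, and in none of the 16 do the groups overlap.

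Arginine feeds opposed pathways in macrophages. Nos2, the inducible nitric oxide synthase of the M1 state, makes nitric oxide and citrulline from it, and Arg1, usually held as a marker of alternative activation and repair, makes ornithine, the start of polyamines and proline. Both were higher. Arg1 measured 541, 973, 685 and 773 RPKM at 24 h, against 1.77, 1.67, 3.65 and 0.71 RPKM at 0 h, and Nos2 measured 19.9, 15.7, 24 and 22.8 RPKM at 24 h, against 0.114, 0.187, 0.124 and 0.175 RPKM at 0 h. The 24 h libraries lay above every 0 h library in both genes, and per kilobase Arg1 exceeded Nos2 in each 24 h library. Ass1, which recycles citrulline to arginine, measured 80.3, 83.7, 77.9 and 67 RPKM at 24 h, against 9.52, 8.22, 6.71 and 8.39 RPKM at 0 h (3.09 ± 0.09). Arg2, the mitochondrial arginase, had 2.09, 2.2, 1.89 and 3 RPKM at 24 h, against 0.049, 0.128, 0.128 and 0.287 RPKM at 0 h (1.51 ± 0.12). In all, 15 of 21 tested genes of arginine and polyamine metabolism were higher and 4 lower (median 0.54, and read-scaled 0.12 with 10 higher and 8 lower). The lower members included Pts (-0.38), which acts in making tetrahydrobiopterin, the cofactor of nitric oxide synthase, and Slc7a1, an arginine transporter.

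The IL-1 family gave cytokine and antagonist together. Il1b, the precursor cleaved by caspase 1, measured 28.5, 50.3, 45.2 and 66.3 RPKM at 24 h, against 0.599, 0.752, 0.581 and 0.581 RPKM at 0 h. Its antagonists rose as well. Il1rn, the IL-1 receptor antagonist, measured 49.5, 38.1, 42.6 and 52.1 RPKM at 24 h, against 1.46, 1.42, 1.41 and 1.53 RPKM at 0 h, and Il18bp, which traps IL-18, 68.3, 47.4, 57.5 and 74.1 RPKM at 24 h, against 8.32, 8.6, 8.96 and 9.29 RPKM at 0 h. Groups were apart in all of these, and 24 h replicate 1 was the lowest of its group in Il1b. Log2 fold changes were 4.84 ± 0.22 for Il1b, 4.24 ± 0.11 for Il1rn, 2.66 ± 0.11 for Il18bp and 2.64 ± 0.15 for Il1a. The list with the inflammasome had 13 higher and 2 lower of 17 tested (median 0.99, and read-scaled 0.66 with 12 higher and 5 lower). Nlrc4, an inflammasome scaffold, was lower (-0.36), as was Il1rap, and Nlrp3 and Aim2 did not pass.

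Cytokines known for the first hours stood low at 24 h. Tnf measured 10.8, 12, 11.9 and 10.5 RPKM at 24 h, against 4.91, 3.84, 4.05 and 3.45 RPKM at 0 h (1.29 ± 0.08), and Il6 measured 0.169, 0.247, 0.199 and 0.469 RPKM at 24 h, against 0.0336, 0.0601, 0.0399 and 0.0198 RPKM at 0 h (0.29 ± 0.08). Both were above 0 h in every library, but the Il6 level stayed under 1 RPKM. Il27, a cytokine with anti-inflammatory actions on T cells (1.91), Tnfsf9, the 4-1BB ligand (1.59), and Osm, oncostatin M (1.11), were the other leading members. Csf1, the macrophage growth factor, was lower (-0.4), as was Il10. Of 16 tested cytokines outside the IL-1 family 10 were higher and 2 lower (median 0.28, and read-scaled 0.24 with 9 higher and 4 lower). With the length trend removed this list had 7 higher and 4 lower, with a median of 0.10.

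Chemokines for monocytes and T cells were higher. Ccl5, or RANTES, which draws T cells and monocytes, measured 3666, 2790.2, 2998 and 4910.02 RPKM at 24 h, against 4.19, 3.29, 4.16 and 4.18 RPKM at 0 h. Ccl2, the main monocyte attractant acting on CCR2, measured 1280.4, 1760.5, 1255 and 1668 RPKM at 24 h, against 35.6, 28.6, 26.1 and 20.9 RPKM at 0 h, and Ccl7, a neighbour of it on the same receptor, 580.4, 966, 621 and 781 RPKM at 24 h, against 24.8, 22.2, 20.6 and 13.6 RPKM at 0 h. All 24 h libraries lay far above 0 h, with 24 h replicates 2 and 4 the highest in Ccl2 and Ccl7. The log2 fold changes were 9.47 ± 0.12 for Ccl5, 5.7 ± 0.12 for Ccl2, 5.12 ± 0.15 for Ccl7 and 4.89 ± 0.13 for Ccl12, another monocyte attractant of the mouse. Of 12 CC chemokines 11 were higher and 0 lower (median 1.17, read-scaled 0.69), and Ccl24 was the member that did not pass. GGGANNNNCC, the letters of a kappa B site, was present on either strand in 1 of 7 promoters of this list (14.3%), against 20.7% of all promoters and 26.2% of those of tested genes.

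All 10 tested CXC chemokines were higher (median 1.92, read-scaled 1.44). The neutrophil attractants Ppbp, Cxcl3 and Cxcl2 led the list by difference of log2(RPKM + 1). Cxcl3 measured 7.54, 16.4, 12.8 and 20.1 RPKM at 24 h, against 0.02, 0.0243, 0 and 0.0413 RPKM at 0 h, and Cxcl2 measured 10.6, 19.5, 13.9 and 20.1 RPKM at 24 h, against 1.23, 0.917, 0.754 and 0.949 RPKM at 0 h. In both, as in Ppbp, 24 h replicate 1 was the lowest of its group, and no libraries of the groups overlapped. Log2 fold changes were 3.998 ± 0.16 for Ppbp, 3.82 ± 0.23 for Cxcl3 and 3.08 ± 0.15 for Cxcl2. The interferon-γ-driven T cell attractants Cxcl9 and Cxcl10 rose less on this scale. Cxcl9 lay well under 1 RPKM at 0 h, where the scale understates the change. Cxcl9 measured 13.5, 3.69, 6.01 and 6.65 RPKM at 24 h, against 0.112, 0.133, 0.275 and 0.16 RPKM at 0 h (2.73 ± 0.25), with 24 h replicate 1 above the other 24 h libraries, and Cxcl10 measured 18, 12.6, 19.5 and 20.1 RPKM at 24 h, against 4.81, 5.85, 5.76 and 4.32 RPKM at 0 h (1.57 ± 0.13).

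Growth factors and matrix proteins were mixed, with 12 of 21 higher and 4 lower (median 0.25, and read-scaled 0.19 with 11 higher and 9 lower). Vegfa, the angiogenic factor driven by HIF-1, measured 41.6, 28.1, 37.1 and 50.9 RPKM at 24 h, against 10.7, 11.7, 12.2 and 11.7 RPKM at 0 h. Thbs1, thrombospondin, which activates latent TGF-β, measured 31.3, 33.8, 53.1 and 36.9 RPKM at 24 h, against 2.72, 3.87, 4.96 and 5.04 RPKM at 0 h. The 24 h group lay above 0 h in both, with log2 fold changes of 1.66 ± 0.1 for Vegfa and 2.95 ± 0.21 for Thbs1. Gdf15, a stress-induced member of the TGF-β family, measured 114, 25.1, 42.5 and 119.9 RPKM at 24 h, against 15.2, 14.7, 11.2 and 18.6 RPKM at 0 h (2.01 ± 0.3). Its 24 h libraries split, with replicates 1 and 4 above replicates 2 and 3. Fabp4, a lipid chaperone, rose (1.71), and Apoe, the apolipoprotein by which macrophages hand out cholesterol, measured 305, 265, 255 and 359.7 RPKM at 24 h, against 636, 671, 787 and 795 RPKM at 0 h (-1.29 ± 0.1).

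Proteases that cut matrix, and their inhibitors, were mostly higher: 15 of 20 rose and 2 fell (median 1.01, read-scaled 0.67). Mmp14, the membrane-bound collagenase that activates Mmp2, measured 17.9, 19.4, 22.7 and 22.9 RPKM at 24 h, against 0.114, 0.167, 0.18 and 0.112 RPKM at 0 h. Mmp13 (3.57), a collagenase, Mmp9 (3.25), a gelatinase, and Timp1 (3.01), an inhibitor of these enzymes, followed Mmp14 (4.24). Mmp27 (-1.29) and Timp2 were the lower members.

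Enzymes of lipid mediators moved in both directions. Ptges, the inducible synthase of prostaglandin E2, measured 26.1, 21.3, 24 and 27.2 RPKM at 24 h, against 0.474, 0.315, 0.293 and 0.349 RPKM at 0 h (4.24 ± 0.06). Hpgd, the dehydrogenase that inactivates prostaglandin E2, measured 0.0557, 0.0151, 0.0908 and 0.0594 RPKM at 24 h, against 3.35, 3.03, 4.66 and 3.61 RPKM at 0 h (-2.13 ± 0.07). The groups were apart in both. Ltb4r1, the leukotriene B4 receptor (3.26), and Pla2g7, which breaks down platelet-activating factor (2.59), were higher. The list had 11 higher and 6 lower of 19 (median 0.51, read-scaled 0.14).

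At the cell surface, Cd14, the coreceptor for lipopolysaccharide, measured 514, 664, 661 and 828 RPKM at 24 h, against 180.3, 186, 196 and 176 RPKM at 0 h (1.83 ± 0.12), whereas Tlr2, a receptor for bacterial lipoproteins, measured 9.61, 15.2, 13.8 and 11.9 RPKM at 24 h, against 32.1, 29.9, 32 and 31.1 RPKM at 0 h (-1.26 ± 0.11). Every 24 h library was above 0 h for Cd14 and below it for Tlr2. The endosomal RNA receptors Tlr7 (-1.26) and Tlr8 (-0.94) were lower, and Irak3, an inhibitory kinase of Toll-like receptor signalling, was higher (1.42). Tlr4 itself, at 23 RPKM at 24 h and 25.2 RPKM at 0 h, did not pass. Over the 23 tested members of the pathway 11 were higher and 9 lower, close to the shares over all genes, and the median of 0.17 turned to -0.3 when read-scaled, with 4 higher and 14 lower.

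C-type lectins, which bind fungal and microbial sugars and lipids, split by kind. Clec4n, known as dectin-2, measured 362, 462, 358 and 433 RPKM at 24 h, against 26.5, 21.9, 17.4 and 30.4 RPKM at 0 h, and Clec4e, known as Mincle, 240.02, 255, 229 and 232 RPKM at 24 h, against 25.3, 21, 17 and 21 RPKM at 0 h. Mrc1, the mannose receptor of resting and alternatively activated macrophages, measured 48.4, 70.2, 61.6 and 36.2 RPKM at 24 h, against 208, 215, 256 and 176 RPKM at 0 h. Both lectins stood above 0 h in every 24 h library and Mrc1 below it. Their log2 fold changes were 4.03 ± 0.13 for Clec4n, 3.45 ± 0.08 for Clec4e, 1.8 ± 0.08 for Clec4d and -1.99 ± 0.12 for Mrc1. In the list 10 of 14 were higher and 4 lower (median 0.7, read-scaled 0.23).

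Receptors for antibody also changed. Fcgr1, the high-affinity IgG receptor and a target of interferon-γ, measured 551, 519, 492 and 541 RPKM at 24 h, against 73, 77.8, 84.8 and 68.4 RPKM at 0 h (2.78 ± 0.07). Its signalling chain Fcer1g rose (1.29), as did the inhibitory receptor Fcgr2b (0.998). Fcrls, an Fc receptor-like molecule of tissue macrophages and microglia, measured 13.1, 12.8, 13 and 14.8 RPKM at 24 h, against 176, 176, 194 and 181 RPKM at 0 h (-3.67 ± 0.06). The list had 5 higher and 2 lower of 7 (median 0.64, and read-scaled 0.16 with 3 higher and 3 lower). Among complement genes, C3, the central component, measured 149, 118, 154 and 118 RPKM at 24 h, against 11.8, 12.2, 12.8 and 12.4 RPKM at 0 h, and Cfb, factor B of the alternative pathway, 10.8, 10.9, 10.2 and 4.59 RPKM at 24 h, against 0.0124, 0.0172, 0.0343 and 0.00853 RPKM at 0 h. The groups were apart in both, with 24 h replicate 4 the lowest 24 h library in Cfb. Over 14 members 8 were higher and 6 lower (median 0.32, and read-scaled -0.13 with 5 higher and 7 lower).

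Scavenger and efferocytosis receptors, through which macrophages take up modified lipids, microbes and dying cells, were lower more often than higher: 11 of 21 were lower and 5 higher (median -0.37, and read-scaled -0.84 with 3 higher and 14 lower). The members at least 2-fold higher were Marco and Msr1, both known to bind bacteria. Marco measured 239.6, 214, 229 and 327 RPKM at 24 h, against 9.19, 5.92, 5.01 and 6.71 RPKM at 0 h (5.05 ± 0.14), and Msr1, or scavenger receptor A, measured 493, 588, 479.6 and 461 RPKM at 24 h, against 56.3, 46, 43.2 and 36.4 RPKM at 0 h (3.46 ± 0.09). Gas6, which bridges dying cells to the receptors Axl and Mertk, measured 65.4, 56.5, 61.5 and 66.9 RPKM at 24 h, against 432, 449.7, 489 and 467 RPKM at 0 h (-2.86 ± 0.07). Stab1, an endocytic receptor of tissue macrophages, measured 31.3, 35.2, 38.6 and 29.1 RPKM at 24 h, against 164, 161, 191 and 150.1 RPKM at 0 h (-2.28 ± 0.09). No library of these genes at 24 h fell within the 0 h range.

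Receptors for cytokines and growth factors were higher in 16 of 24 and lower in 8 (median 0.39, and read-scaled 0.02 with 11 higher and 11 lower). Il2rg, the common γ chain (1.65), and Il4ra, the IL-4 receptor (1.46), led the rises. Csf1r, the receptor for the growth factor on which these cells depend, measured 144, 138, 166 and 145 RPKM at 24 h, against 339, 348, 403 and 393 RPKM at 0 h (-1.32 ± 0.08). Tgfbr1 (-1.49) and Il6ra (-1.37) were lower as well, and the groups did not overlap in any of these genes. Among receptors for chemokines, purines and metabolites, 13 of 26 were higher and 11 lower (median 0.28, but -0.14 read-scaled). The formyl peptide receptors, which sense bacterial peptides, rose the most in it. Fpr1 measured 60.3, 109, 84.4 and 70.9 RPKM at 24 h, against 1.88, 1.29, 1.19 and 1.74 RPKM at 0 h (4.998 ± 0.14) and Fpr2 measured 60.01, 70.6, 63.2 and 76.9 RPKM at 24 h, against 1.34, 1.39, 0.838 and 0.901 RPKM at 0 h (5.02 ± 0.09). Ccr1, a receptor for Ccl5, was higher (2.89), and P2ry13, a receptor for ADP, was lower (-1.89).

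Costimulatory and inhibitory molecules were led by Cd38, an ectoenzyme that consumes NAD and marks mouse M1 cells, at 42.2, 48.8, 47.9 and 45 RPKM at 24 h, against 0.258, 0.281, 0.304 and 0.229 RPKM at 0 h (5.21 ± 0.06). Cd274, or PD-L1, the ligand that restrains T cells, measured 105, 61.1, 77.9 and 84.7 RPKM at 24 h, against 4.62, 5.73, 6.26 and 6.42 RPKM at 0 h (3.6 ± 0.11). Cd83, an early activation marker of antigen-presenting cells, measured 0.888, 0.559, 0.67 and 0.651 RPKM at 24 h, against 16.8, 18.3, 19.2 and 16.9 RPKM at 0 h (-3.48 ± 0.09). The 24 h group was wholly above 0 h in Cd38 and Cd274 and wholly below it in Cd83. Slamf8 (1.97), a regulator of the NADPH oxidase, was among the 11 of 17 that were higher, with 5 lower (median 0.64, read-scaled 0.16).

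Genes of antigen presentation were mostly higher in both classes. In class II, 8 of 9 were higher and 0 lower (median 0.96, and read-scaled 0.5 with 8 higher and 1 lower). H2-Ab1, a β chain of the class II molecule, measured 44.7, 45, 39.7 and 62.1 RPKM at 24 h, against 3.13, 4.18, 4.41 and 3.73 RPKM at 0 h (3.32 ± 0.11), and Cd74, the invariant chain, 35, 26.2, 34.9 and 52.2 RPKM at 24 h, against 11, 14.7, 16.8 and 16.6 RPKM at 0 h (1.25 ± 0.14). In class I and the immunoproteasome, 18 of 19 were higher and 0 lower (median 1.01, read-scaled 0.54). The non-classical genes H2-T22 (2.02), H2-T23 (1.69) and H2-M3 (1.45) led it, with groups apart in each. Class I genes are near copies of each other, so the counting could have split their reads, and values of H2-T22 and H2-Q7 (1.41) are uncertain for that reason.

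Integrins and adhesion molecules were mixed, 11 of 19 higher and 5 lower (median 0.22, and read-scaled -0.2 with 5 higher and 11 lower). Itga5, of the fibronectin receptor, measured 59.3, 44.9, 60.4 and 65.3 RPKM at 24 h, against 15.6, 15.9, 15.8 and 15.4 RPKM at 0 h, and Itgal, of LFA-1, 14.7, 12.8, 15.8 and 11.9 RPKM at 24 h, against 3.85, 3.08, 3.23 and 3.11 RPKM at 0 h. Itga4, of the receptor for VCAM-1, measured 1.38, 1.78, 2.01 and 0.691 RPKM at 24 h, against 7.04, 7.65, 8.76 and 6.82 RPKM at 0 h. Itga5 (1.8) and Itgal (1.77) were above 0 h in all libraries and Itga4 (-1.82) below it.

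Interferon-stimulated antiviral genes were higher in 28 of 32 and lower in 1 (median 0.9, read-scaled 0.5). Interferon turns these genes on through the interferon-stimulated response element, a site read by the factor ISGF3 and by IRFs. The promoters of Isg15, a ubiquitin-like modifier, and Ifi205, an interferon-inducible protein of the p200 family, are shown because both rose and both hold the letters of this element. They span the start of the gene and are from RefSeq, build GRCm38.p6, Isg15 on the minus strand at chr4:156200769-156201068 and Ifi205 on the minus strand at chr1:174031706-174032005, written 5′ to 3′ on the strand of the gene. Capitals mark GAAANNGAAA on either strand.
Isg15: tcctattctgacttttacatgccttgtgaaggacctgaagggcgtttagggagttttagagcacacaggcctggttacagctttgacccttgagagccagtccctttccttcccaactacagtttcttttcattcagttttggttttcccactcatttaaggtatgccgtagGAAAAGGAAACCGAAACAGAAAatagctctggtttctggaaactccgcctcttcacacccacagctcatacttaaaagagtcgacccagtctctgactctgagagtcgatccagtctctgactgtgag
Ifi205: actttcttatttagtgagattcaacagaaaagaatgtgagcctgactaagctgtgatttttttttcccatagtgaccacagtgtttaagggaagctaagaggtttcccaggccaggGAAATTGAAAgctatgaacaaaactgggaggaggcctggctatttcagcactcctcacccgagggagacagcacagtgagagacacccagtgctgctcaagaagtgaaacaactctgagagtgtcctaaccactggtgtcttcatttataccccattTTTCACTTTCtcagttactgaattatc
GAAANNGAAA on either strand was present in 14 of 27 promoters of the antiviral list (51.9%), against 3.44% of all 32851 RefSeq promoters and 3.48% of the promoters of tested genes. The match is a description of letters and not of binding.

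Isg15 measured 322, 269, 279 and 405 RPKM at 24 h, against 60.8, 69.8, 79.1 and 60.6 RPKM at 0 h (2.21 ± 0.11). Ifi205 measured 8.95, 7.16, 8.05 and 7.68 RPKM at 24 h, against 0.282, 0.285, 0.278 and 0.285 RPKM at 0 h (2.8 ± 0.1), with near copies in its family that make the value uncertain. Isg20, an RNA exonuclease (2.42), and Oasl1, which restrains Irf7 translation in mouse cells (2.29), were next among the called members. All of their 24 h libraries lay above 0 h. Oas2, of the enzymes that activate RNase L, was the lower member (-0.27), and its groups overlapped.

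Of the interferon-γ-induced GTPases 1 was at least 2-fold higher and 0 lower. These proteins of the GBP and IRG families attack the vacuoles of intracellular microbes. Of 14 tested 9 were higher and 2 lower (median 0.27, and read-scaled 0.002 with 4 higher and 4 lower). Gbp2 measured 47.1, 35.9, 39.4 and 37 RPKM at 24 h, against 14.1, 16, 18.4 and 15.4 RPKM at 0 h (1.27 ± 0.08). Gbp5 measured 3.11, 2.53, 3.04 and 1.79 RPKM at 24 h, against 0.732, 1.02, 1.22 and 0.967 RPKM at 0 h (0.86 ± 0.11). Irgm2 measured 11, 11.2, 12.6 and 8.27 RPKM at 24 h, against 13.8, 15, 18.4 and 15.5 RPKM at 0 h (-0.51 ± 0.09). The 24 h libraries were above 0 h in Gbp2 and Gbp5 and below it in Irgm2. These families are arrays of near copies, which makes single values uncertain. TTCNNNGAA, the letters of the gamma-activated sequence, was present on either strand in 6 of 11 promoters of this list (54.5%), against 8.30% of all promoters and 6.87% of those of tested genes.

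Irf7, the master regulator of late type I interferon, measured 588, 529, 590.3 and 687 RPKM at 24 h, against 33.3, 39.96, 46.9 and 38.3 RPKM at 0 h (3.89 ± 0.08). It was the member of at least 2-fold change among 7 interferon regulatory factors, of which 6 were higher and 0 lower (median 0.37, and read-scaled -0.09 with 2 higher and 2 lower). Irf8 (0.95), Irf2 (0.52) and Irf5 (0.37) were the next, Irf5 with its sign turned when read-scaled. The members of at least 2-fold change among JAK, STAT and SOCS genes were feedback inhibitors. Socs3, which shuts down signalling by IL-6 family receptors, measured 55.8, 57.7, 63.2 and 68.9 RPKM at 24 h, against 0.733, 0.866, 0.785 and 0.946 RPKM at 0 h (5.09 ± 0.07), and Socs1, which shuts down interferon receptors, 3.51, 3.17, 3.08 and 5.17 RPKM at 24 h, against 0.286, 0.588, 0.229 and 0.612 RPKM at 0 h (1.72 ± 0.14). Both had their groups apart. Jak2 (0.9) was higher and Socs6 (-0.75) lower. The list had 8 higher and 4 lower of 19 (median 0.08, and read-scaled -0.37 with 5 higher and 12 lower). With the length trend removed it had 12 higher and 4 lower, with a median of 0.24.

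Among NF-κB subunits and inhibitors 16 of 22 were higher and 4 lower (median 0.54, and read-scaled 0.1 with 9 higher and 6 lower). Nfkbia, the inhibitor IκBα, measured 147, 169, 158 and 185 RPKM at 24 h, against 34.8, 34.7, 33.8 and 36.9 RPKM at 0 h (2.19 ± 0.07). Tnfaip3, or A20, a ubiquitin-editing brake, measured 10.6, 8.03, 9.91 and 8.86 RPKM at 24 h, against 2.03, 1.83, 1.92 and 1.59 RPKM at 0 h (1.86 ± 0.07). Traf1 (2.14), an adaptor of TNF receptors, and Bcl3 (1.65), a nuclear inhibitor-like protein, rose. Nfkb1, the p105 and p50 subunit, measured 3.66, 3.49, 4.1 and 3.56 RPKM at 24 h, against 6.34, 6.47, 6.92 and 6.37 RPKM at 0 h (-0.68 ± 0.05), and Rela and Rel were lower too. The 24 h and 0 h libraries were apart in each of the genes given with a value.

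Of the AP-1, C/EBP and small Maf factors 18 of 23 were higher and 2 lower (median 0.79, and read-scaled 0.51 with 12 higher and 6 lower). Cebpb, a driver of acute-phase genes and of Arg1 in macrophages, measured 46.5, 26, 29.8 and 63.5 RPKM at 24 h, against 5.4, 4.72, 4.75 and 5.65 RPKM at 0 h (2.71 ± 0.2). Its 24 h replicates 1 and 4 were above replicates 2 and 3. Fos (2.92), Junb (1.84) and Maff (1.83) rose. Cebpa, whose product is tied to myeloid commitment, was lower (-0.36) with overlapping groups. Hif1a, the oxygen-sensitive factor behind glycolytic genes, measured 39.4, 44, 47.5 and 30.6 RPKM at 24 h, against 10.1, 9.28, 9.04 and 9.03 RPKM at 0 h (1.98 ± 0.09). Id2 (1.59), an inhibitor of E proteins, and Nr1h3 (1.53), the LXRα sterol receptor, were higher, and Lyl1 (-1.41), a hematopoietic factor, lower. Lineage and nuclear receptor factors were 14 higher and 11 lower of 28, near the shares over all genes (median 0.09, and read-scaled -0.1 with 8 higher and 12 lower).

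Klf2, a quiescence factor known to restrain NF-κB output, measured 35.3, 36.1, 37 and 51 RPKM at 24 h, against 9.06, 9.36, 9.74 and 8.91 RPKM at 0 h (1.98 ± 0.11). Klf10 (1.0), Klf7 (0.72) and Klf4 (0.67) rose and Klf11 (-0.57) fell. Of 10 Kruppel-like factors 6 were higher and 2 lower (median 0.31, and read-scaled -0.15 with 4 higher and 4 lower). Feedback regulators of MAP kinases were higher in 11 of 13 and lower in 1 (median 0.56, and read-scaled 0.25 with 6 higher and 2 lower). Dusp1, the phosphatase that ends p38 and JNK signals, measured 34.8, 25.5, 29.4 and 30.6 RPKM at 24 h, against 3.24, 2.91, 3.07 and 2.84 RPKM at 0 h (2.95 ± 0.07), and Spry2 (1.52), Dusp4 (1.32) and Dusp5 (1.31) followed. Both Klf2 and Dusp1 were above 0 h in every 24 h library. Regulators of mRNA decay were near the shares over all genes, 5 higher and 7 lower of 16 (median -0.11, and read-scaled -0.51 with 3 higher and 11 lower). With the length trend removed this list had 6 higher and 6 lower, with a median of 0.02. Zfp36, or tristetraprolin, which binds AU-rich elements, measured 45.3, 28.2, 39.3 and 53.5 RPKM at 24 h, against 12.7, 13.8, 14.9 and 14.4 RPKM at 0 h (1.47 ± 0.13), and Zc3h12a, or Regnase-1, an endonuclease, 8.97, 7.95, 9.16 and 8.82 RPKM at 24 h, against 2.58, 2.82, 2.96 and 3.14 RPKM at 0 h (1.33 ± 0.07). Zfp36l2, a relative of Zfp36, was lower (-1.06), and the groups were apart in all of these.

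**Figure D3:**
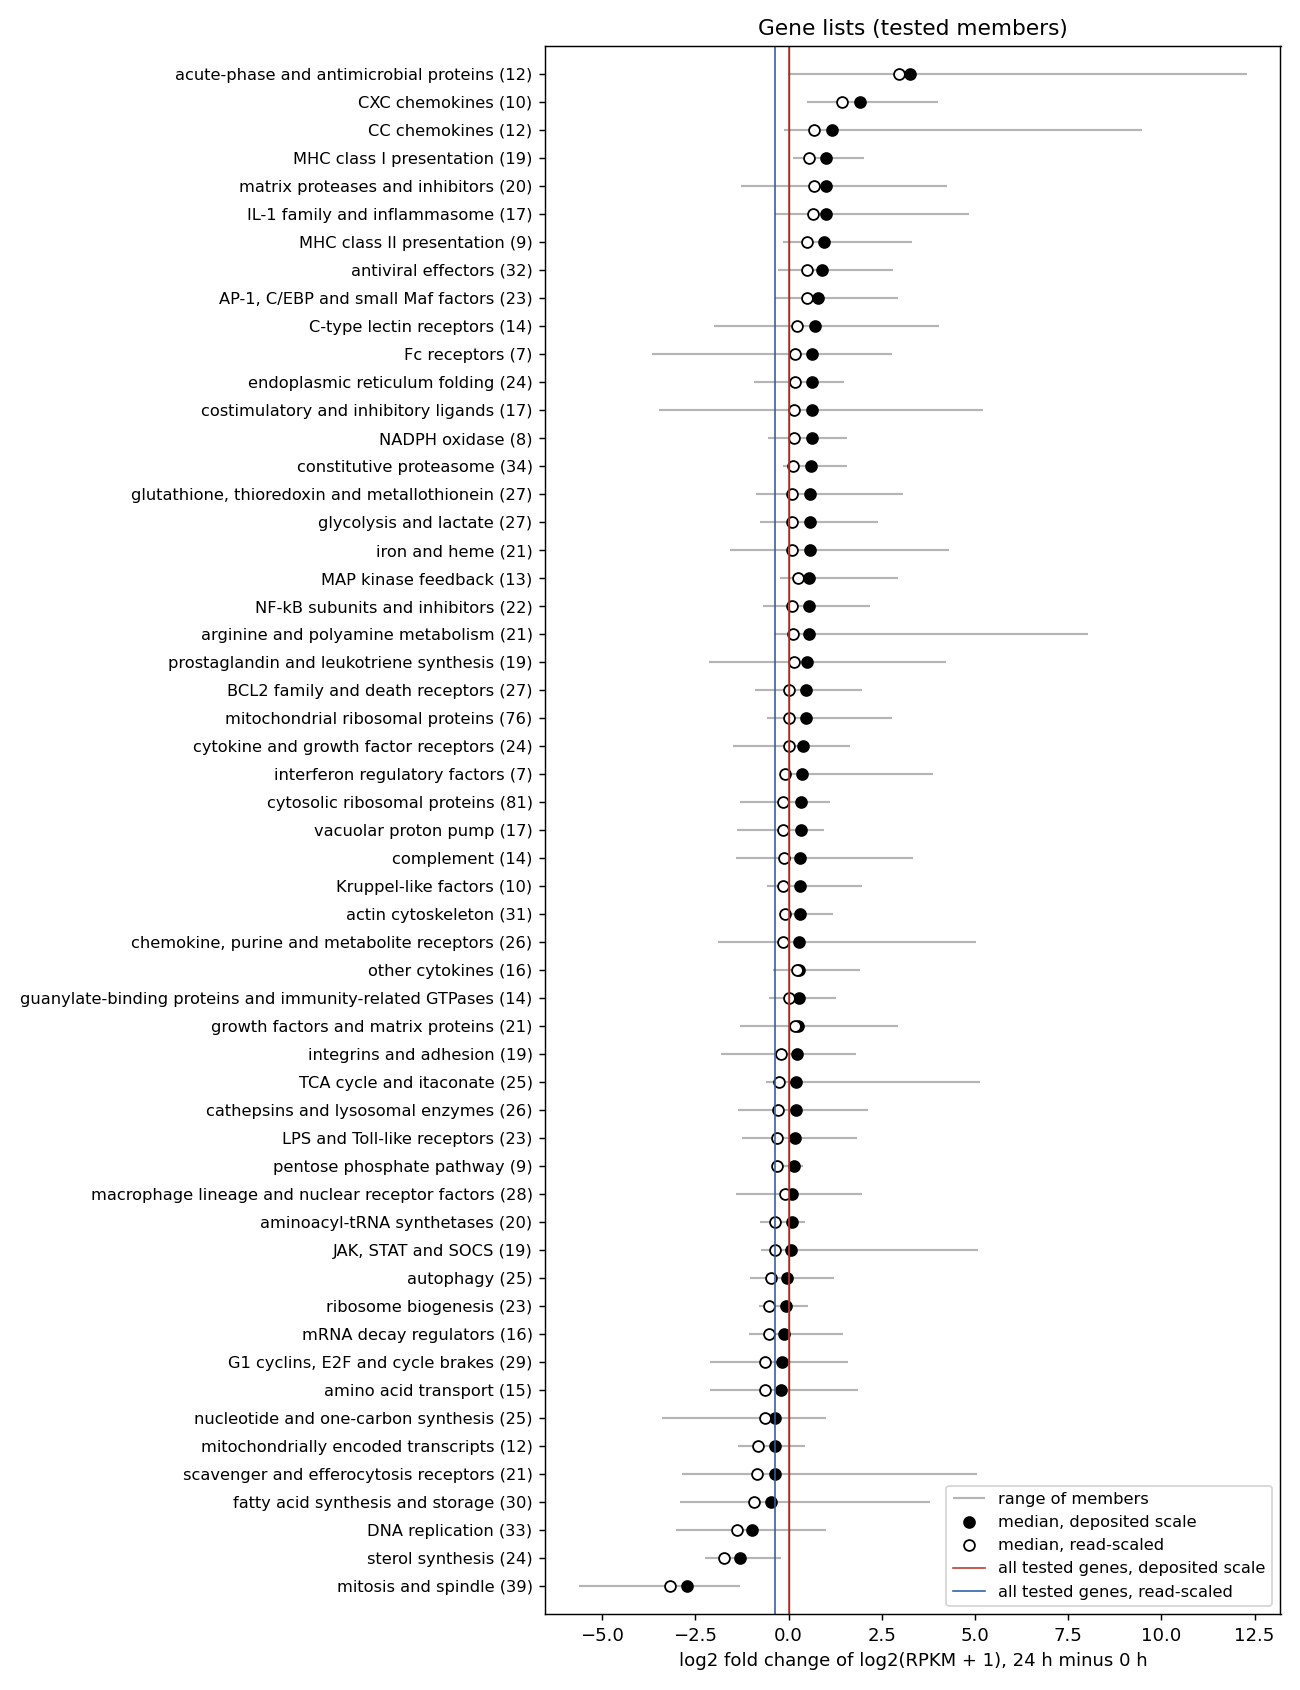
Median log2 fold change, 24 h minus 0 h, of the tested members of each gene list (filled points), with the range from lowest to highest member (lines) and the read-scaled median (open points). Vertical lines mark 0 and the medians of all tested genes on the deposited scale (0.02) and read-scaled (-0.37). Mitosis and sterol synthesis lie lowest and acute-phase proteins highest on both scales.

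In metabolism, genes of glucose uptake, glycolysis and lactate export were mostly higher in RNA on the deposited scale. Of 27 genes 21 were higher and 4 lower (median 0.57, and read-scaled 0.09 with 13 higher and 6 lower). Slc2a1, the glucose transporter GLUT1, measured 89.8, 89.1, 98.5 and 114 RPKM at 24 h, against 19.4, 18.7, 18.8 and 14 RPKM at 0 h (2.4 ± 0.09). Pfkfb3, which raises the activator of phosphofructokinase, measured 18.4, 16.6, 20.4 and 16.4 RPKM at 24 h, against 2.7, 2.87, 3.24 and 2.64 RPKM at 0 h (2.29 ± 0.08). Slc16a3, the lactate exporter MCT4, measured 97.7, 120.3, 115 and 104 RPKM at 24 h, against 42.5, 43.5, 42.2 and 30.7 RPKM at 0 h (1.45 ± 0.09). All were above 0 h in every library, as were Hk2, the inducible hexokinase (1.58), and Ldha, which makes lactate (1.14). Slc2a6, a lysosomal hexose transporter, was the lower member of largest size (-0.76). ACGTG, the core of the hypoxia response element, was present on either strand in 18 of 40 promoters of this list (45.0%), against 19.6% of all promoters and 26.2% of those of tested genes.

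The pentose phosphate pathway changed little. Of 9 genes 4 were higher and 1 lower (median 0.14, and read-scaled -0.3 with 0 higher and 7 lower). Pgls (0.38), Rpe (0.34) and Pgd (0.23) turned sign when read-scaled, Pgls did not pass without 24 h replicate 4 (limma adjusted p = 0.058), and Tkt was lower (-0.27). Genes of the TCA cycle were 13 higher and 7 lower of 25 (median 0.19, and read-scaled -0.26 with 5 higher and 19 lower). Acod1, which diverts aconitate into the antimicrobial itaconate, measured 283, 302, 322 and 268 RPKM at 24 h, against 8.97, 7.59, 6.29 and 6.76 RPKM at 0 h (5.14 ± 0.08). Mdh2, malate dehydrogenase, measured 88.8, 86.4, 85.5 and 109 RPKM at 24 h, against 42.7, 38.7, 35.3 and 38 RPKM at 0 h (1.23 ± 0.07). In both the 24 h libraries lay above the 0 h ones. Sdhb (0.99), of the succinate dehydrogenase that itaconate inhibits, and Dlst (0.63) were higher, and Idh3g, of the NAD-linked isocitrate dehydrogenase, was lower (-0.61). Of 12 mitochondrially encoded transcripts 1 was higher, COX1 (0.43), and 6 were lower, among them ND3 (-1.37), ND2 (-0.68) and ND1 (-0.6). COX1 turned sign when read-scaled, and the list's median was -0.36 (read-scaled -0.82 with 0 higher and 10 lower). With the length trend removed the median was -0.81, with 0 higher and 9 lower.

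Among iron and heme genes, those of storage and heme breakdown rose the most. Fth1, the ferritin heavy chain that stores iron, measured 90719.5, 71554, 71189 and 128857 RPKM at 24 h, against 14407, 13676, 12432 and 16366 RPKM at 0 h (2.63 ± 0.13). Hmox1, heme oxygenase, which frees iron from heme, measured 4276, 3237, 3667 and 5275 RPKM at 24 h, against 233, 203, 187 and 189 RPKM at 0 h (4.32 ± 0.11). The groups were apart in both, with 24 h replicate 4 the highest. Fbxl5, the iron sensor that degrades iron regulatory proteins, was higher (2.01). Ncoa4, which delivers ferritin to lysosomes for release of iron, measured 7.8, 6.27, 8.21 and 5.42 RPKM at 24 h, against 19.2, 22.1, 25.7 and 22 RPKM at 0 h (-1.56 ± 0.09). Slc40a1, or ferroportin, the iron exporter, was lower (-1.23), as was Tfrc, the transferrin receptor (-0.7). In all 12 of 21 were higher and 8 lower (median 0.57, read-scaled 0.1).

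Antioxidant genes were 18 higher and 5 lower of 27 (median 0.58, and read-scaled 0.1 with 13 higher and 9 lower). Prdx5, a peroxiredoxin that removes peroxides, measured 1209.96, 1217, 1017 and 1747 RPKM at 24 h, against 160.01, 150.3, 137 and 157 RPKM at 0 h, and Sod2, the mitochondrial superoxide dismutase, 96.3, 96.6, 94.3 and 138 RPKM at 24 h, against 13.9, 12.4, 11.8 and 12.9 RPKM at 0 h. Slc7a11, which imports cystine for glutathione, measured 3.86, 3.14, 3.73 and 3.37 RPKM at 24 h, against 0.231, 0.189, 0.0657 and 0.31 RPKM at 0 h. These rose by 3.07 for Prdx5, 2.95 for Sod2 and 1.92 for Slc7a11, with groups apart in each. Cat, or catalase, was lower (-0.87). TGACNNNGC, the core of the antioxidant response element, was present in 8 of 31 promoters of the list (25.8%), against 12.4% of all promoters and 14.7% of those of tested genes. For the NADPH oxidase, which makes superoxide, 5 of 8 members were higher and 3 lower (median 0.63, and read-scaled 0.16 with 4 higher and 4 lower). Its membrane core Cybb measured 391, 393, 408 and 244 RPKM at 24 h, against 117, 114, 122 and 117 RPKM at 0 h (1.57 ± 0.1) and Cyba 1725, 1878, 1467 and 2394 RPKM at 24 h, against 773, 751, 668 and 752 RPKM at 0 h (1.32 ± 0.12), above 0 h in each library. Rac2 (1.22) and Ncf4 (1.11) were higher too, and Hvcn1, the proton channel that balances its charge, lower (-0.55).

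Lipid synthesis fell. All 24 of 24 tested genes of sterol synthesis and its control were lower and 0 were higher (median -1.29, read-scaled -1.73), and 14 fell by at least 2-fold. Insig1, which holds the sterol sensor SCAP in the endoplasmic reticulum and is itself a target of SREBP, measured 22.4, 21.1, 19.99 and 17 RPKM at 24 h, against 84.5, 78.8, 67.8 and 72.6 RPKM at 0 h. Cyp51, lanosterol demethylase, measured 7.83, 10.01, 8.79 and 7.74 RPKM at 24 h, against 38.3, 34.4, 27.4 and 32.7 RPKM at 0 h. No 24 h library reached the 0 h range in these genes, with log2 fold changes of -1.87 ± 0.09 for Insig1, -1.83 ± 0.09 for Cyp51 and -2.005 ± 0.11 for Acat2. TCACNCCAC, the letters of the sterol regulatory element, was present on either strand in 1 of 20 promoters of the list (5.00%), that of Hmgcs1, against 1.24% of all promoters and 1.10% of those of tested genes.

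For fatty acids, 19 of 30 genes were lower and 8 higher (median -0.48, and read-scaled -0.92 with 3 higher and 23 lower). Fads2, a desaturase of polyunsaturated fatty acids, measured 6.85, 4.85, 6.45 and 4.24 RPKM at 24 h, against 52.2, 50.3, 40.3 and 50.2 RPKM at 0 h (-2.91 ± 0.12). Scd1, the stearoyl desaturase, measured 0.592, 0.603, 0.852 and 0.594 RPKM at 24 h, against 8.5, 9.87, 7.7 and 12.7 RPKM at 0 h (-2.67 ± 0.1), and Fasn, fatty acid synthase, 1.05, 1.12, 1.31 and 0.663 RPKM at 24 h, against 7.38, 6.92, 6.82 and 6.49 RPKM at 0 h (-1.96 ± 0.08). Every 24 h library lay below 0 h in these. Hilpda, which blocks the lipase of lipid droplets and is a hypoxia target, went the other way at 61, 66.6, 58.7 and 101 RPKM at 24 h, against 4.67, 4.46, 3.56 and 3.7 RPKM at 0 h (3.81 ± 0.12). Transporters of amino acids were 6 higher and 8 lower of 15 (median -0.2, and read-scaled -0.63 with 3 higher and 11 lower). Slc15a3, a lysosomal histidine and peptide carrier (1.87), and Slc3a2, the shared heavy chain of several carriers (1.18), were higher. Slc38a2, the glutamine and alanine carrier, measured 6.95, 5.79, 6.62 and 5.93 RPKM at 24 h, against 31, 29.1, 29.9 and 32.6 RPKM at 0 h (-2.11 ± 0.06), and Slc7a5, the leucine carrier that pairs with Slc3a2, was lower (-1.22).

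The other broad fall was in genes of proliferation. Many genes of mitosis share a promoter layout, in which a cell cycle homology region and CCAAT boxes bind repressor and activator complexes. The promoters of Ccnb2, cyclin B2, and Ube2c, the ubiquitin conjugase of the anaphase-promoting complex, are shown because these genes fell the most among list members whose promoter holds the letters of that region. They are from RefSeq, build GRCm38.p6, Ccnb2 on the minus strand at chr9:70421505-70421804 and Ube2c on the plus strand at chr2:164769679-164769978, 5′ to 3′ on the strand of the gene. Capitals mark TTTGAA and CCAAT on either strand, so that they also appear as TTCAAA and ATTGG, and neighbouring matches run together where they touch or overlap.
Ccnb2: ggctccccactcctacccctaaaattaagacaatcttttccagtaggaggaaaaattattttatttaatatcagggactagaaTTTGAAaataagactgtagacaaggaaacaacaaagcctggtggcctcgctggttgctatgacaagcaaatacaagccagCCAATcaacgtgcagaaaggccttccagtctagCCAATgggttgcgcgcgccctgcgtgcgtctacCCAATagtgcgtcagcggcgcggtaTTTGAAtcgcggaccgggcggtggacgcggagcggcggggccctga
Ube2c: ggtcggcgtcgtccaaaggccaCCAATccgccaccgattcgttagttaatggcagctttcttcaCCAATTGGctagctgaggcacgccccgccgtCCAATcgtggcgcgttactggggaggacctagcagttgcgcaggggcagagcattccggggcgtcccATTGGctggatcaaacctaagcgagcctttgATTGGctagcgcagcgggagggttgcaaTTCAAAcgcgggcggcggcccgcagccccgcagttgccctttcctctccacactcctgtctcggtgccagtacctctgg
TTTGAA was present in 25 of 33 promoters of the mitosis list (75.8%), against 17.9% of all RefSeq promoters and 12.1% of those of tested genes. CCAAT was present in 26 of 33 (78.8%), against 37.4% of all and 37.9% of those of tested genes.

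All 39 of 39 tested genes of mitosis and the spindle were lower and 0 higher, each by at least 2-fold (median -2.73, read-scaled -3.17). Ccnb2 measured 0.151, 0.144, 0.203 and 0.177 RPKM at 24 h, against 60.1, 60.8, 58.4 and 49.2 RPKM at 0 h. Ube2c measured 0.1, 0.13, 0.144 and 0.249 RPKM at 24 h, against 30.3, 28.9, 28.4 and 26.6 RPKM at 0 h. Stmn1, stathmin, which takes tubulin out of microtubules, measured 2.29, 2.72, 2.13 and 2.74 RPKM at 24 h, against 77.7, 71.9, 68.4 and 61.8 RPKM at 0 h. The groups were apart by more than the whole range of either in each of these. Their log2 fold changes were -5.63 ± 0.06 for Ccnb2, -4.68 ± 0.06 for Ube2c and -4.35 ± 0.08 for Stmn1, beside -4.64 ± 0.05 for Ccna2, the S and G2 cyclin, -4.43 ± 0.07 for Cdc20, the anaphase activator, and -3.53 ± 0.06 for Top2a, a topoisomerase. Cdkn3 (-3.3), a phosphatase of Cdk1, and Asf1b (-3.1), a histone chaperone of dividing cells, were also among the 10 lower genes of largest change.

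In DNA replication 31 of 33 genes were lower and 1 was higher (median -0.98, read-scaled -1.39). The replicative helicase fell, Mcm5 at 1.9, 2.75, 2.35 and 1.9 RPKM at 24 h, against 29.8, 27.2, 23.1 and 21.1 RPKM at 0 h (-3.02 ± 0.08) and Mcm7 at 0.847, 1.26, 1.08 and 0.803 RPKM at 24 h, against 16, 15.7, 13.1 and 12 RPKM at 0 h (-2.92 ± 0.07). Uhrf1, which maintains DNA methylation behind the fork (-2.34), and Lig1, the ligase of Okazaki fragments (-1.92), fell as well. Pcna, the sliding clamp, was the higher member at 201, 161, 153 and 209.7 RPKM at 24 h, against 106, 92.3, 79.5 and 81.2 RPKM at 0 h (1.0 ± 0.1), with all 24 h libraries above 0 h. The E2F letters TTTCCCGC were present in 6 of 31 promoters of the list (19.4%), against 1.07% of all promoters and 2.01% of those of tested genes. TTTGGCGC was present in 5 of 31 (16.1%), against 0.514% of all and 1.05% of those of tested genes.

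Nucleotide and one-carbon genes were 16 lower and 4 higher of 25 (median -0.36, and read-scaled -0.64 with 2 higher and 22 lower). The enzymes of deoxynucleotides fell the most. Tk1, thymidine kinase, measured 0.377, 0.634, 0.394 and 0.527 RPKM at 24 h, against 17.5, 16.2, 13 and 11.7 RPKM at 0 h (-3.38 ± 0.08), and Rrm2, of ribonucleotide reductase, 1.49, 1.6, 1.68 and 1.05 RPKM at 24 h, against 24.9, 20.8, 18.7 and 17.5 RPKM at 0 h (-3.13 ± 0.08). Rrm1 (-2.17) and Tyms (-1.96), thymidylate synthase, were lower, and the mitochondrial folate enzyme Mthfd2 was higher (1.02). Around the G1 decision the list was split, 14 higher and 15 lower of 29 (median -0.19, and read-scaled -0.63 with 7 higher and 19 lower). Cdkn1a, the p21 inhibitor of cyclin-dependent kinases, measured 449.95, 339, 422 and 516 RPKM at 24 h, against 146, 141, 140.4 and 139.5 RPKM at 0 h (1.59 ± 0.08), above 0 h in each library. Cdkn2c, the p18 inhibitor, fell (-1.77), as did E2f8, a repressor of the cycle (-1.69), and Mxd4, a Myc antagonist (-2.1).

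Genes of protein synthesis depended on the scale. For 81 cytosolic ribosomal proteins, 56 were higher and 3 lower (median 0.33, and read-scaled -0.15 with 8 higher and 34 lower). Without 24 h replicate 4 the higher count was 33, and with the length trend removed it was 33, with 27 lower. Rpl24 (1.12) and Rpl41 (0.87) led the rises, Rpl22l1 (-1.31) and Rpl10a (-0.8) the falls, and many processed copies of these genes make single values uncertain. Mitochondrial ribosomal proteins were higher in 63 of 76 and lower in 3 (median 0.46, and read-scaled 0.01 with 26 higher and 26 lower), led by Mrpl52 (2.78). Ribosome biogenesis had 6 higher and 11 lower of 23 (median -0.08, and read-scaled -0.52 with 0 higher and 20 lower). Ubtf (-0.79), a factor of ribosomal RNA transcription, Ncl (-0.75) and Npm1 (-0.66), nucleolar chaperones, fell, and Nop16 rose (0.51). Aminoacyl-tRNA synthetases were 6 higher and 6 lower of 20 (median 0.09, and read-scaled -0.36 with 0 higher and 19 lower). Vars fell (-0.75), and Sars rose (0.45) on the deposited scale and turned sign when read-scaled.

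Folding in the endoplasmic reticulum was higher in 19 of 24 genes and lower in 2 (median 0.64, and read-scaled 0.17 with 13 higher and 8 lower). The unfolded protein response drives such genes through the ER stress response element, read by ATF6 with NF-Y. The promoters of Calr, the lectin chaperone calreticulin, and Creld2, a disulfide isomerase-like protein, are shown because both rose and hold the whole element. They are from RefSeq, build GRCm38.p6, Calr on the minus strand at chr8:84846882-84847181 and Creld2 on the plus strand at chr15:88819396-88819695, 5′ to 3′ on the strand of the gene. Capitals mark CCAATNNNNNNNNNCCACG on either strand, whose first letters are also a CCAAT box.
Calr: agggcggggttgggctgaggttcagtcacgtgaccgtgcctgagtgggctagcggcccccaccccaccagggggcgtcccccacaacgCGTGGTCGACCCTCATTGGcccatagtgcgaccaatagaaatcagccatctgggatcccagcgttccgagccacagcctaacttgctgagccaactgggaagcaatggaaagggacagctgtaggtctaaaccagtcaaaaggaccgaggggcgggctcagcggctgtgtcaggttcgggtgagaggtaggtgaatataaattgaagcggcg
Creld2: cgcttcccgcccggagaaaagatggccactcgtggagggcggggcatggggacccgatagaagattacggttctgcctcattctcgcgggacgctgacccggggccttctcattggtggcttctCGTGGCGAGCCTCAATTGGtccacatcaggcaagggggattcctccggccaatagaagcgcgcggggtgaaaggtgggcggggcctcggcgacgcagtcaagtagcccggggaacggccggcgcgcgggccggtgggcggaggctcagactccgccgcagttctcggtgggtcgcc
These letters were present in 7 of 21 promoters of the folding list (33.3%), against 0.119% of all RefSeq promoters and 0.108% of those of tested genes. Calr measured 972, 961, 863 and 927 RPKM at 24 h, against 408, 362, 331 and 329 RPKM at 0 h (1.38 ± 0.07), and Creld2 measured 43.7, 36.9, 39.1 and 68.3 RPKM at 24 h, against 22.4, 21.2, 18.3 and 18.9 RPKM at 0 h (1.14 ± 0.11), above 0 h in each library. Manf, a secreted survival factor of the reticulum (1.48), and Hyou1, a large chaperone (1.11), rose. Herpud1, which recruits the degradation machinery to the reticulum, was lower (-0.93).

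Breakdown genes varied by system. Constitutive proteasome subunits were higher in 29 of 34 and lower in 0 (median 0.6, and read-scaled 0.12 with 17 higher and 6 lower). Psma6 measured 267, 287, 231 and 342 RPKM at 24 h, against 103, 93.5, 87.9 and 90.6 RPKM at 0 h (1.57 ± 0.09), and Psmb5 (1.12), Psmd10 (1.07) and Psmb3 (0.97) were next. Lysosomal enzymes were 14 higher and 7 lower of 26 (median 0.19, and read-scaled -0.29 with 9 higher and 16 lower). The protease Ctsl, or cathepsin L, measured 2296, 2696, 2346 and 2949.6 RPKM at 24 h, against 598, 575, 582 and 565 RPKM at 0 h (2.14 ± 0.07). Ctsh (1.99), Ctsc (1.48) and Npc2 (1.52), which carries cholesterol out of the lysosome, rose, and Ctsf fell (-1.34). Subunits of the proton pump that acidifies the lysosome were 11 higher and 3 lower of 17 (median 0.32, and read-scaled -0.14 with 4 higher and 9 lower), Atp6v1e1 (0.96) and Atp6v0a1 (-1.37) being the extremes. With the length trend removed the pump had 8 higher and 4 lower, with a median of 0.09. Autophagy genes were 11 higher and 8 lower of 25 (median -0.04, and read-scaled -0.47 with 3 higher and 19 lower). Bnip3, a hypoxia-induced receptor of mitophagy, was higher (1.22), as was Atg5 (1.01), and the kinases Ulk1 (-0.94) and Ulk2 (-1.03), which start autophagy, were lower.

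Among genes of survival and death, 18 of 27 were higher and 8 lower (median 0.47, and read-scaled 0.01 with 10 higher and 10 lower). Bcl2a1a, a survival protein of myeloid cells, measured 3.28, 3.48, 2.99 and 5.36 RPKM at 24 h, against 0.228, 0.148, 0.249 and 0.132 RPKM at 0 h (1.98 ± 0.14), and Bcl2a1d, its near copy, rose (1.39), with the split of reads between copies uncertain. Fas, the death receptor (1.68), and Mlkl, the executor of necroptosis (1.66), were higher, and Fadd, the adaptor of Fas, was lower (-0.91). For the actin cytoskeleton 19 of 31 were higher and 2 lower (median 0.3, and read-scaled -0.08 with 7 higher and 14 lower). Tmsb4x, thymosin β4, which sequesters actin monomers, measured 5249, 5612, 4748 and 7551 RPKM at 24 h, against 2628, 2504, 2442 and 2338 RPKM at 0 h (1.2 ± 0.11). Tmsb10 (1.08) and Myo1e (0.99) rose, and Gsn, gelsolin, fell (-0.26). Actb, often used as a constant gene, averaged 995 ± 70.5 RPKM at 24 h and 886 ± 45.9 RPKM at 0 h (SD, n = 4 each), with overlapping groups and an adjusted p of 0.06.

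Where 24 h stood in the course differed between genes. Of the 623 genes at least 2-fold higher at 24 h, the highest group mean of the course lay at 24 h in 252 (40.4%), at 16 h in 79, at 8 h in 158 and at 4 h in 134. Of the 534 at least 2-fold lower, the lowest mean lay at 24 h in 135 (25.3%), at 16 h in 213, at 8 h in 123 and at 4 h in 63. These counts share the 0 h and 24 h libraries with the calls and are a description.

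Several genes had their highest mean at 24 h. Saa3 had group means of 13.3, 10905, 39623, 68311 and 72676 RPKM at 0, 4, 8, 16 and 24 h, and Marco 6.71, 32.7, 111, 237 and 252 RPKM at those times. Fth1 followed with 14220.4, 23365, 42687, 63000.1 and 90579.9 RPKM and Irf7 with 39.6, 374, 533, 549 and 599 RPKM. Other genes called higher at 24 h were past their highest mean. Cxcl10 had means of 5.18, 3572, 103, 43.3 and 17.6 RPKM at those times, Il6 0.0383, 143, 15.4, 0.767 and 0.271 RPKM and Gbp5 0.984, 188, 35.7, 4.95 and 2.62 RPKM. The highest mean of each of these lay at 4 h. Hp had 0.822, 146, 513, 439 and 173 RPKM, with its highest mean at 8 h. Ccl2 had 27.8, 3514, 1616, 4435 and 1491 RPKM and Hmox1 203, 539, 6265, 3506 and 4114 RPKM, neither in a single direction after 4 h. Vegfa was lower than 0 h at 4 h and highest at 24 h, with 11.6, 3.36, 9.33, 12.9 and 39.4 RPKM.

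Falling genes differed in the same way. Ccnb2 had means of 57.1, 59.4, 17.3, 0.183 and 0.168 RPKM at 0, 4, 8, 16 and 24 h and Mcm5 25.3, 33.6, 15.1, 1.95 and 2.23 RPKM, both low from 16 h on. The 4 h mean of Ccnb2 was within the spread of its 0 h libraries. Fasn was low from 4 h on, with 6.9, 1.67, 1.49, 1.7 and 1.04 RPKM. Mrc1 and Gas6 were lowest at 16 h and higher again at 24 h, Mrc1 with 214, 156, 68.7, 27 and 54.1 RPKM and Gas6 with 459, 125, 40.3, 27.1 and 62.6 RPKM. Cd83 and Tlr2, which were lower at 24 h, had been higher than 0 h at 4 h, Cd83 with 17.8, 63.6, 12.5, 0.973 and 0.692 RPKM and Tlr2 with 31.3, 349, 64.2, 17.2 and 12.6 RPKM. The differences between times other than 24 h against 0 h were not tested here.

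**Figure D4:**
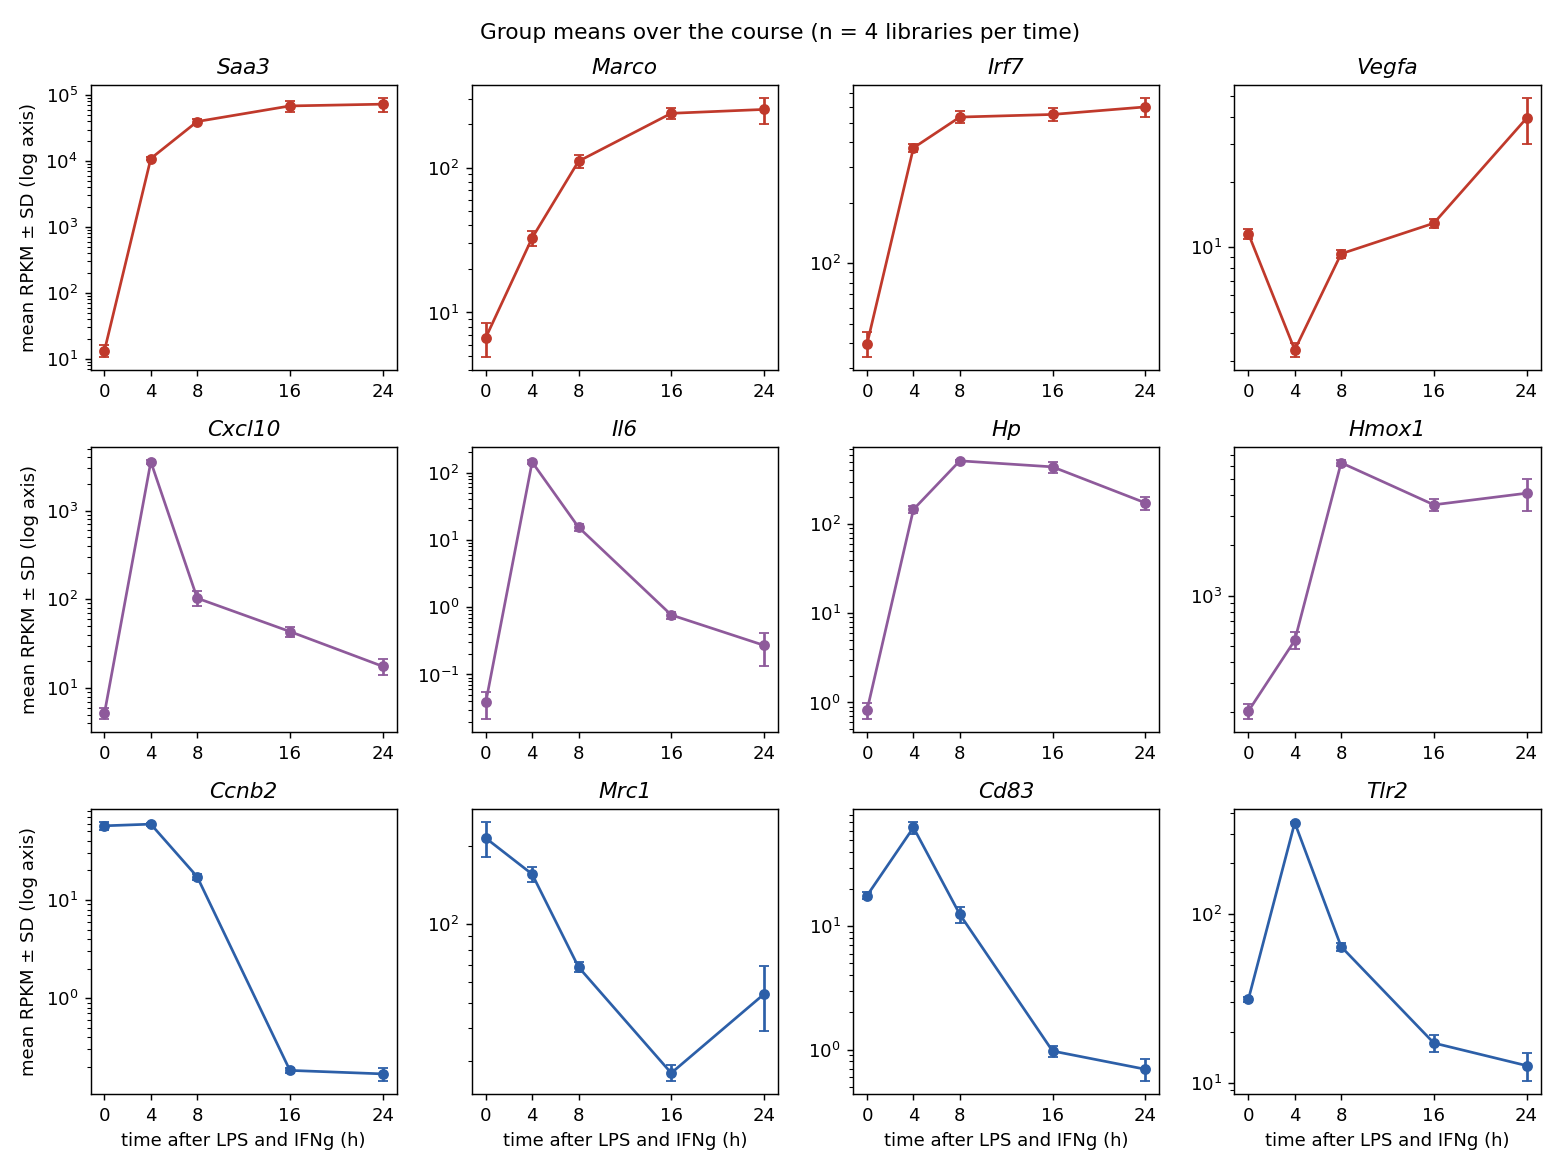
Group mean RPKM ± SD (n = 4 libraries per time) of 12 genes at 0, 4, 8, 16 and 24 h on a log axis. The upper row holds genes with the highest mean at 24 h, the middle row genes with an earlier peak and the lower row genes lower at 24 h than at 0 h, of which Cd83 and Tlr2 rise at 4 h first.

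The same states were profiled for lactylation (H3K18la) and acetylation (H3K18ac) of lysine 18 of histone H3, both found at active promoters, with 1 ChIP-seq library per mark and state, so that the states cannot be tested against each other. The deposited lists held 16139 H3K18la peaks in M1 at 24 h and 21885 in M0, and 42237 and 41493 H3K18ac peaks. Of the 9942 tested genes, 7997 had a RefSeq start, and a gene was counted as marked where a peak came within 2 kb of it. All intervals are exact binomial 95% intervals and cover counting error only.

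Of genes at least 2-fold lower at 24 h, 54.5% (49.6 to 59.3%) had an H3K18la peak in M1, against 95.05% (92.5 to 96.9%) in M0. A peak of M0 without a peak in M1 was present at 174 of these 424 genes, or 41.0% (36.3 to 45.9%). It was present at 303 of 1823 genes that were not called, or 16.6% (14.9 to 18.4%). Such a loss of H3K18ac was present at 16.5% (13.1 to 20.4%) of the 424 and at 2.03% (1.43 to 2.79%) of genes not called. A gain of H3K18la, a peak in M1 and none in M0, was present at 34 of 492 genes at least 2-fold higher, or 6.91% (4.83 to 9.52%), and at 0.987% (0.586 to 1.56%) of genes not called. The same higher genes had a loss of H3K18la more often than a gain, at 42 of 492, or 8.54% (6.22 to 11.4%). Of the higher genes 80.5% (76.7 to 83.9%) had an H3K18la peak in M0 and 78.9% (75.0 to 82.4%) in M1. Of genes not called, 92.8% had a peak in M0 and 77.1% in M1. A gain needs a start without a peak in M0, so the higher genes had more room for it than genes not called. A gain of H3K18ac was present at 5.08% (3.32 to 7.41%) of the higher genes and at 1.37% (0.889 to 2.02%) of genes not called. The M1 library had fewer H3K18la peaks in all, and losses were counted in every class of genes. With peaks of at least 4-fold enrichment alone, the authors' value per peak, the H3K18la losses were 56.1% of the lower genes and 33.6% of genes not called, and among the higher genes 17.1% lost and 6.50% gained the mark. On the same peaks the H3K18ac losses were 36.3% of the lower genes and 13.1% of genes not called, and its gains 10.4% of the higher genes and 3.40% of genes not called.

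By gene list, H3K18la peaks of M0 without a peak in M1 were counted at 16 of 32 starts of mitosis genes, 12 of 26 of DNA replication, 12 of 22 of nucleotide synthesis and 9 of 17 of sterol synthesis. Cytosolic ribosomal protein genes had 10 of 60. For comparison, such losses were counted at 16.6% of genes not called and at 15.7% of genes called under 2-fold. The falling lists lost H3K18ac peaks too, at 7 of 32 starts of mitosis, 5 of 26 of DNA replication, 3 of 22 of nucleotide synthesis and 3 of 17 of sterol synthesis. Cytosolic ribosomal protein genes lost 0 of 60. Losses of H3K18ac were at 2.03% of genes not called and 2.74% of genes called under 2-fold. Ccnb2, Ube2c and Mcm5, and also Fcrls and Gas6, had an H3K18la peak in M0 and none in M1. The antiviral list had 4 of 24 starts with a peak in M1 alone, in both marks, and 0 with a peak in M0 alone. Among genes not called, a peak in M1 alone was counted at 0.987% for H3K18la and 1.37% for H3K18ac. The CXC chemokines were all higher in RNA. In each mark 3 of their 8 starts had a peak in M0 alone and 1 in M1 alone. Chemokine, purine and metabolite receptors had an H3K18la peak in M0 alone at 6 of 21 starts and in M1 alone at 2. Cd38 had an H3K18la peak in M1 and none in M0. Lcn2 and Marco had a peak of H3K18ac in M1 alone and none of H3K18la in either state, and Saa3 had H3K18ac in both states and no H3K18la peak. Irf7, Socs3 and Vegfa carried both marks in both states. Arg1 and Nos2 had no start that could be matched and are not counted.

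**Figure D5:**
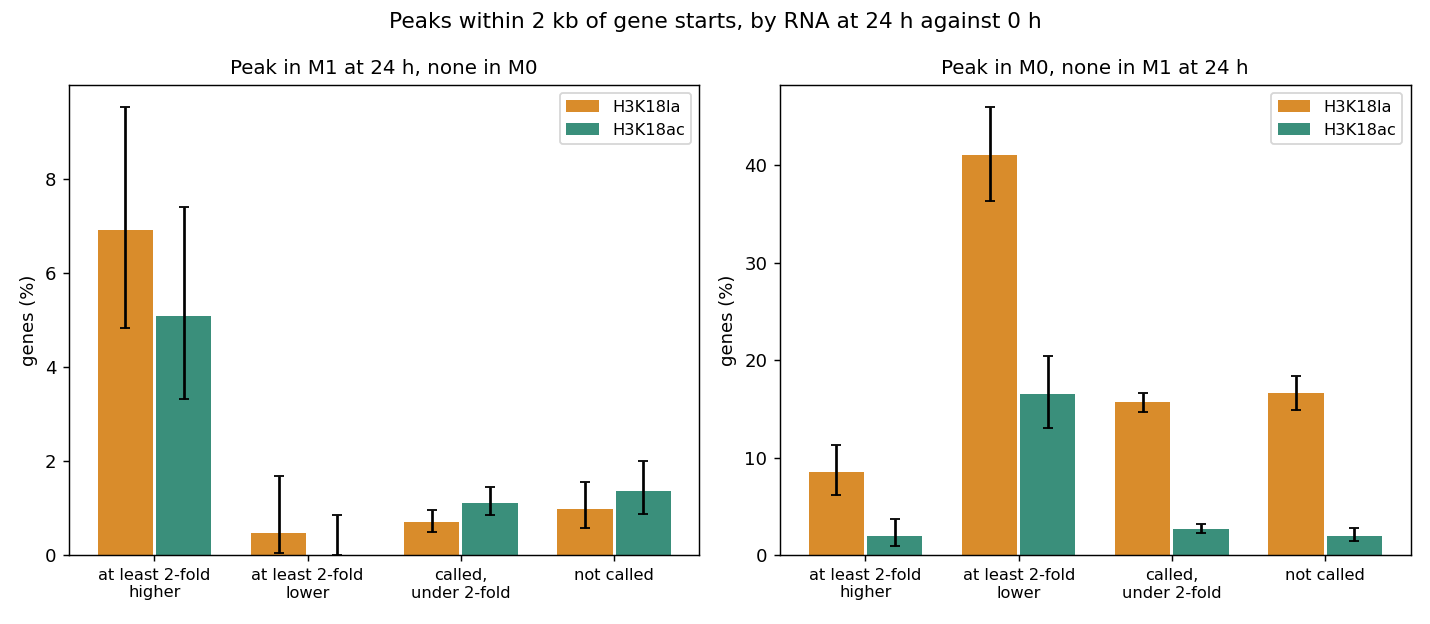
Percent of genes with a peak within 2 kb of the start in M1 at 24 h and none in M0 (gained, left panel) and in M0 and none in M1 (lost, right panel), for H3K18la and H3K18ac. Bars are classes of genes by RNA at 24 h against 0 h and error bars exact binomial 95% intervals for counting error; H3K18la losses reach 41.0% in genes at least 2-fold lower and 16.6% in genes not called.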

How the data were processed

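RNA values are RPKM computed by the authors and deposited as 1 table. The submitters' processing notes name HISAT2 2.1.0, featureCounts 1.5.0-p1 and edgeR, and build mm10 or GRCm38, and the strand setting of counting is not given in the sources used here. ChIP-seq peaks were called per library, and the fold enrichment (ratio) per peak is the authors' own. The notes also name Bowtie2 2.2.6, SAMtools 0.1.19 and MACS2 2.2.1. Per the deposited table of counts, reads in mouse were 21006731 (M1) and 21765076 (M0) for H3K18la and 32948615 (M1) and 36576826 (M0) for H3K18ac.

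Genes that reached 1 RPKM in 4 or more libraries entered limma 3.58.1 in R 4.3.3, with a trend on log2(RPKM + 1), all 32 RNA libraries in 1 model and Benjamini-Hochberg adjustment at 0.05. The procedure was tested on simulated data, where the share of false calls came out above 0.05. Gene lengths and library sizes were recovered from the RPKM for 11183 of 11184 genes, with 99.99% of values within 0.05 of a whole read. Starts and promoters came from RefSeq tables, which held 7997 of the 9942 tested genes, and no genome was used.

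Gene lists and members were chosen with earlier results of these data known. Named genes were 10 fixed genes, up to 4 called members of largest change per list and the largest called in the opposite direction, the 10 higher and 10 lower genes of largest change, and the 10 of largest spread at 24 h. Some genes that the rule names are not reported here. Genes named for not passing the test, for a count of 5 or fewer, for a course over time or for a peak pattern were in part chosen after their values were seen. Alternatives covered scale, gene length, pseudocount, filter, libraries in the model, replicate block, tool and each library left out.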

Additional observations from a re-analysis of the deposited data

Results flagged for a closer look

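In 36 of 488 groups of 4 libraries, counting the 24 h and the 0 h group of each named gene, 1 library stood apart: its gap to the nearest other library took most of the range of its group. Chance alone gives about 1 in 20 groups, but some of these genes were named for their spread at 24 h, so the count is a description. Of these, 21 were at 24 h, 16 of them replicate 4, and 15 at 0 h, of which replicate 4 had 6 and replicate 3 had 5.

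At 24 h, replicate 4 stood above the rest of its group in several genes. It had 114 RPKM of Slpi, 23.2 RPKM of Timp1, 28.4 RPKM of Tnfsf9, 9.87 RPKM of Traf1, an adaptor of TNF receptors, and 138 RPKM of Sod2. It also had 51 RPKM of Klf2, 109 RPKM of Mdh2, 86.2 RPKM of Tkt and 14.8 RPKM of Fcrls. It stood below the rest with 4.59 RPKM of Cfb, complement factor B, 244 RPKM of Cybb, 3.49 RPKM of Tgfbr1, 2.71 RPKM of Atp7a, 4.72 RPKM of Lnpep, 9.57 RPKM of Slfn5 and 4.19 RPKM of Wdfy2. Cybb, with 391 to 408 RPKM in the other 24 h libraries, was above the 0 h libraries in replicate 4 too. Replicate 1 was the lowest at 24 h in ND1 (175 RPKM), Ppbp (12.8 RPKM) and Ubtf (3.93 RPKM), replicate 2 in Klf11 (0.622 RPKM), and replicate 3 was the highest in Scd1 (0.852 RPKM).

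At 0 h, replicate 3 was the lowest of its group in Atg5 (19.1 RPKM), Atp6v1e1 (38.5 RPKM), Fads2 (40.3 RPKM), Mthfd2 (11 RPKM) and Sdhb (49.1 RPKM). Replicate 4 was the lowest in Ccr1 (16.3 RPKM), Id2 (26.6 RPKM), Slc16a3 (30.7 RPKM) and Slc2a1 (14 RPKM) and the highest in Ctsh (27.4 RPKM) and Rpl24 (14.7 RPKM). Replicate 2 was the lowest in Ccl5 (3.29 RPKM) and the highest in Il1b (0.752 RPKM). Replicate 1 was the lowest in Isg20 (3.11 RPKM) and the highest in Cdkn1a (146 RPKM).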

How the results depend on the processing

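Counts of called genes depended most on the scale. As deposited, 3966 genes were higher and 3713 lower, 623 and 534 of them by at least 2-fold. When read-scaled, as defined above, 1686 were higher and 6588 lower, 309 and 1255 by at least 2-fold. On that scale Actb (-0.32) and Pgd (-0.25) changed sign and passed as lower. COX1 (-0.051), Irf5 (-0.101), Lnpep (-0.25), Pgls (-0.074), Rpe (-0.11), Sars (-0.021) and Slfn5 (-0.098) changed sign and did not pass. Of 244 genes named by the rule 232 kept direction and call, and Irf2, Nop16 and Siglec1 kept their sign and lost the call. With at least 5 RPKM on average, fewer genes were tested and 2017 were lower. A pseudocount of 0.1 gave 864 genes higher and 833 lower by at least 2-fold. With limma-voom on recovered reads, chosen after seeing the data, these counts were 919 and 894. The setting with a pseudocount of 0.1 differs from the main one only in the constant added to the RPKM. limma-voom differs in that constant, in its weights and in its model of the spread. The part of each in its counts was not tested. Leaving out each library in turn gave 3829 to 3960 higher, 3585 to 3720 lower, 560 to 669 higher by at least 2-fold and 519 to 544 lower by at least 2-fold, the lowest of 560 being without 24 h replicate 4. Without that library 2 constitutive proteasome genes were lower, against 0 with it. Actb passed as higher under limma-voom and without 24 h replicate 1, 24 h replicate 2 or 0 h replicate 1 (0.17 to 0.20), and COX1 and Tkt lost the call with the length trend removed. Pgd and Siglec1 lost it with the 24 h and 0 h libraries alone, where 3591 genes were higher and 3335 lower. With a replicate block 3950 genes were higher and 3705 lower. The replicate numbers were not shown to pair the libraries: deviations of same-numbered 24 h and 0 h libraries correlated at -0.26, 0.13, 0.51 and 0.28, and the block changed no call among the named genes. Count models planned as other tools were not run, since the table holds RPKM. Within 5 kb of the start, H3K18la losses were at 38.2% of genes at least 2-fold lower and at 15.8% of genes not called. Depth limits short genes well under 1 RPKM, which have the fewest reads.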

Other observations

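Among the 10 tested genes of middle or high level with the largest spread between the 24 h libraries were Gdf15, described above, and Slfn5, Tlr8, Wdfy2, Atp7a, Siglec1, Gadd45b, Lnpep and ATP8. Siglec1, the sialic acid receptor CD169 of macrophages, measured 75, 74.7, 89.6 and 32 RPKM at 24 h, against 38.7, 41.8, 50.5 and 41.6 RPKM at 0 h (0.55 ± 0.18, limma adjusted p = 0.0058). Atp7a, a copper transporter that moves copper into phagosomes, measured 9.91, 8.84, 10.1 and 2.71 RPKM at 24 h, against 2.88, 3.29, 3.38 and 2.57 RPKM at 0 h (1.02 ± 0.2). In both, 24 h replicate 4 was the lowest of its group and lay within or below the 0 h range, whereas the other 24 h libraries were above it. Without that library the log2 fold changes were 0.87 for Siglec1 and 1.40 for Atp7a.

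Slfn5, an interferon-induced gene of the Schlafen family, measured 31.2, 31.8, 36.2 and 9.57 RPKM at 24 h, against 15.4, 18.3, 24.4 and 18.1 RPKM at 0 h. Lnpep, an aminopeptidase that trims peptides for cross-presentation, measured 11.5, 12.4, 12.8 and 4.72 RPKM at 24 h, against 7.38, 8.89, 10.7 and 7.29 RPKM at 0 h. Neither passed the test (limma adjusted p of 0.13 for Slfn5 and 0.35 for Lnpep), and 24 h replicate 4 was again the lowest. Without it both passed, with log2 fold changes of 0.78 for Slfn5 and 0.48 for Lnpep (limma adjusted p at most 0.00069).

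Tlr8 measured 22.5, 28.2, 30.3 and 8.47 RPKM at 24 h, against 36.4, 38.8, 45.1 and 38.7 RPKM at 0 h. Wdfy2, an endosomal protein, measured 13.3, 13.9, 15.9 and 4.19 RPKM at 24 h, against 16.8, 19.4, 21.9 and 16.7 RPKM at 0 h (-0.74 ± 0.2) and ATP8, a mitochondrially encoded subunit of ATP synthase, 6.91, 12.4, 12.2 and 4.67 RPKM at 24 h, against 20.4, 15.7, 15.1 and 17.7 RPKM at 0 h (-0.94 ± 0.32). Tlr8, Wdfy2 and ATP8 were below 0 h in every 24 h library, with replicate 4 the lowest. Without it the log2 fold changes were -0.55 for Tlr8, -0.35 for Wdfy2 and -0.69 for ATP8, and ATP8 no longer passed (limma adjusted p = 0.056).

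Gadd45b, a stress-induced regulator of MAP kinases, went the other way within the group, and measured 28.3, 12, 16.5 and 33.2 RPKM at 24 h, against 7.85, 10.3, 11.4 and 12.5 RPKM at 0 h (0.94 ± 0.19). Replicates 4 and 1 were the highest at 24 h, as in Gdf15 and Cebpb, and replicate 2 lay within the 0 h range. Without replicate 4 the log2 fold change of Gadd45b was 0.73. The part of RNA quality in these splits was not tested.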
